A study of Mus musculus with 2 samples.

Results

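The cells described here are resident macrophages of the mouse heart, defined by C1q transcripts together with Lyve1, Folr2 or Timd4. They were taken from single-cell RNA libraries of CD45+ leukocytes sorted from hearts, all from C57BL/6 mice that were wild type and 10 weeks old. One library came from mice with transverse aortic constriction (TAC), a surgical narrowing of the aortic arch that puts the left ventricle under pressure, and the other from sham-operated mice. Each group was 6 mice sequenced as 1 library, so the animals cannot be told apart and nothing separates the surgery from the library. The labels used here give no time after surgery, and say that each sample passed through several droplet runs. The runs of a sample could not be told apart. With 1 library per group there is no test between groups, and every interval below is a 95% interval that covers counting error only.

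A barcode was taken as a single droplet. It was kept when it had at least 300 detected genes. At most 10% of its unique molecular identifiers (UMIs, counted transcript molecules) could come from mitochondrial genes. Among kept barcodes, a member had to carry at least 40 UMIs per 10000 from C1qa, C1qb and C1qc, at least 10 per 10000 from Lyve1, Folr2 and Timd4 together, and under 50 per 10000 from S100a8 and S100a9. It also had to stay under 3 raw UMIs for each of T cell CD3 genes (Cd3d, Cd3e, Cd3g), cell cycle genes (Mki67, Top2a, Birc5), stress genes (Gdf15, Areg) and Hmga2. The rule found 2739 members among 9770 kept barcodes, 843 in TAC hearts and 1896 in sham hearts. The levels of these rule genes chose the members, so they are given as a description.

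Macrophages that seed the heart before and around birth persist largely by local division, and the receptors LYVE1, FOLR2 and TIM4 mark the cells of this lineage in mice. LYVE1 binds hyaluronan, FOLR2 binds folate, and TIM4, encoded by Timd4, recognises phosphatidylserine on dying cells. Such macrophages clear apoptotic and damaged material and secrete growth factors, whereas monocyte-derived macrophages that express the chemokine receptor CCR2 enter the heart after injury.

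The libraries held 7975 TAC and 11941 sham barcodes, of which 5601 TAC and 4169 sham barcodes were kept. The members summed to 13367974 UMIs in TAC hearts and 18941079 UMIs in sham hearts. Their depth ranged between 1156 and 50423 UMIs with a median of 14720 in TAC hearts, and between 1182 and 42273 UMIs with a median of 8887.5 in sham hearts. The median mitochondrial share of members was 4.50% in TAC hearts and 8.22% in sham hearts. Of the barcodes that met every other limit, 146 TAC and 1982 sham barcodes exceeded the mitochondrial limit and were left out. The libraries shared 35 barcode sequences, 7 of them kept in both libraries and 0 a member in both.

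Resident macrophages took a smaller share of the kept leukocytes in TAC hearts. A share of sorted cells does not give the number of cells in the heart. They were 15.1% of kept barcodes in TAC hearts (interval 14.1% to 16.0%) and 45.5% in sham hearts (44.0% to 47.0%). Other leukocytes also enter that denominator, so the share was taken again among C1q barcodes, those that met every limit except that on Lyve1, Folr2 and Timd4. Members were 843 of 2210 C1q barcodes in TAC hearts, or 38.1% (36.1% to 40.2%), against 1896 of 2681 in sham hearts, or 70.7% (69.0% to 72.4%). The remaining C1q barcodes, low in Lyve1, Folr2 and Timd4, numbered 1367 in TAC hearts and 785 in sham hearts. The share depended on the mitochondrial limit. At a limit of 5%, which left 507 TAC members and 29 sham members, members were 14.7% of kept barcodes in TAC hearts and 24.0% in sham hearts.

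The limit on Lyve1, Folr2 and Timd4 fell on a slope of the distribution, not in a gap. Just inside it, at 10 to under 12 UMIs per 10000, lay 75 TAC and 99 sham members, and just outside, at 8 to under 10, lay 91 TAC and 129 sham barcodes. Of all TAC C1q barcodes, 49.6% carried under 5 UMIs per 10000 of the 3 genes, against 19.1% of sham C1q barcodes.

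**Figure D1:**
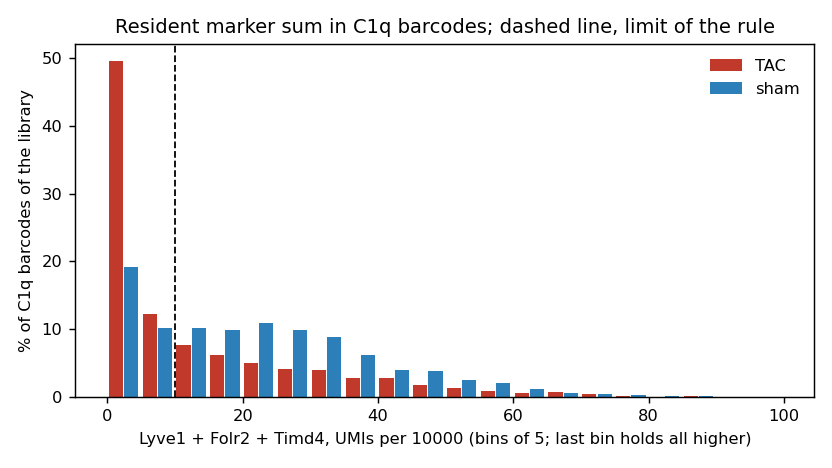
Percentage of C1q barcodes of each library (y axis) by their summed Lyve1, Folr2 and Timd4 UMIs per 10000 (x axis, bins of 5), with TAC in red and sham in blue; the dashed line marks the limit of 10. The lowest bin holds 49.6% of TAC and 19.1% of sham C1q barcodes, and barcodes of both libraries lie on either side of the limit.

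Within the members, the rule genes kept similar levels for Lyve1 and Folr2 and a higher level for Timd4 in TAC hearts. Levels are given as CPM, the usual unit of counts scaled to the summed UMIs of all members of the library. Lyve1 stood at 1463 CPM in TAC hearts and 1291 CPM in sham hearts, Folr2 at 1220 CPM in TAC hearts and 1473 CPM in sham hearts, and Timd4 at 289 CPM in TAC hearts and 166 CPM in sham hearts. C1qa, a chain of the complement recognition protein C1q, stood at 9756 CPM in TAC hearts and 7357 CPM in sham hearts. Because sequencing depth differed, each barcode was also thinned at random to 1000 UMIs before counting how many barcodes carried a gene. Lyve1 was then found in 64.7% of TAC and 63.9% of sham members, Folr2 in 67.0% of TAC and 74.2% of sham members, and Timd4 in 20.2% of TAC and 15.9% of sham members. Without thinning, the Timd4 shares were 77.8% in TAC hearts and 67.6% in sham hearts. Fibroblast-like barcodes, which have under 40 C1q UMIs per 10000 and at least 20 per 10000 from Col1a1, Col1a2 and Dcn, carried each of the 3 genes in at most 0.433% of barcodes in TAC hearts and 2.07% in sham hearts at the same depth. Thinned to 3000 UMIs, 40.3% of TAC members carried all 3 genes against 33.0% of sham members, and 40.4% of TAC members carried Lyve1 and Folr2 without Timd4 against 54.6% of sham members.

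The members carried the general macrophage markers that the rule did not use. Adgre1, which encodes F4/80, stood at 297 CPM in TAC hearts and 363 CPM in sham hearts, and lysozyme Lyz2 at 17766 CPM in TAC hearts and 15894 CPM in sham hearts. Csf1r, the receptor for the macrophage growth factor CSF1, was lower in TAC hearts, at 492 CPM against 840 CPM in sham hearts. The monocyte receptor gene Ccr2 was found in 9.49% of TAC and 8.91% of sham members, and in 33.9% of TAC and 35.3% of sham barcodes low in Lyve1, Folr2 and Timd4. These Ccr2 shares are unthinned. At 1000 UMIs Ccr2 was found in 1.07% of TAC and 2.0% of sham members, against 0 of 231 TAC and 0 of 193 sham fibroblast-like barcodes, which allows shares of up to 1.30% and 1.55%.

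Genes were compared as the ratio of their CPM in TAC members over that in sham members. A gene entered with at least 50 UMIs over both libraries, and is called higher or lower when the ratio passes 1.5-fold. Of 10654 genes, 1155 were higher in TAC members (10.8%) and 2020 were lower (19.0%), and the median log2 ratio over all of them was -0.08. The shares of 10.8% higher and 19.0% lower are the background for each list count in TAC over sham members. Log2 ratios of single genes were computed after adding 0.5 UMI.

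The interferon gamma response genes had the highest median ratio of the 21 lists. These are genes that macrophages switch on in response to interferon gamma from T cells and NK cells. All 26 tested genes of the 28 in the list were higher in TAC members, with a median log2 ratio of 3.63, against 10.8% of all genes and the all-gene median of -0.08. The guanylate-binding proteins, which attack intracellular pathogens and their vacuoles, led the list. Gbp2 stood at 660.1 CPM in TAC members and 22.97 CPM in sham members, a 28.7-fold higher level (26.1 to 31.7). Gbp2b stood at 329 CPM in TAC members and 2.90 CPM in sham members, 113-fold higher (86.8 to 150.5), although 1 barcode held 30.9% of its 55 sham UMIs. Gbp8 was 138-fold higher (82.0 to 253) and Gbp4 108-fold higher (76.0 to 158). Gbp4, Gbp8 and Gbp9 overlap on the same strand of chromosome 5, so reads may be shared between them and their separate values are uncertain.

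Ly6a, which encodes the surface protein Sca-1, stood at 1826 CPM in TAC members and 30.4 CPM in sham members, 60.1-fold higher (55.3 to 65.3). Of the immunity-related GTPases, Iigp1 was 20.6-fold higher, Igtp 19.0-fold higher and Tgtp2 19.2-fold higher. Igtp overlaps Irgm2 on the same strand, and Tgtp1 and Tgtp2 are near-identical copies, so those values are uncertain too. Il18bp, the decoy that neutralises interleukin 18, was 30.1-fold higher, and Cd274, which encodes the T cell inhibitory ligand PD-L1, stood at 70.8 CPM in TAC members and 4.86 CPM in sham members, 14.6-fold higher. The smallest ratios of the list were 1.60-fold for Ciita, 1.81-fold for Cd40 and 1.86-fold for Cxcl10, all higher in TAC members. Fcgr4, an activating receptor for IgG outside the list that overlaps the predicted gene Gm26110 on its strand, stood at 578 CPM in TAC members and 23.2 CPM in sham members, and Fam26f, now called Calhm6, at 195 CPM in TAC members and 5.12 CPM in sham members.

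**Figure D2:**
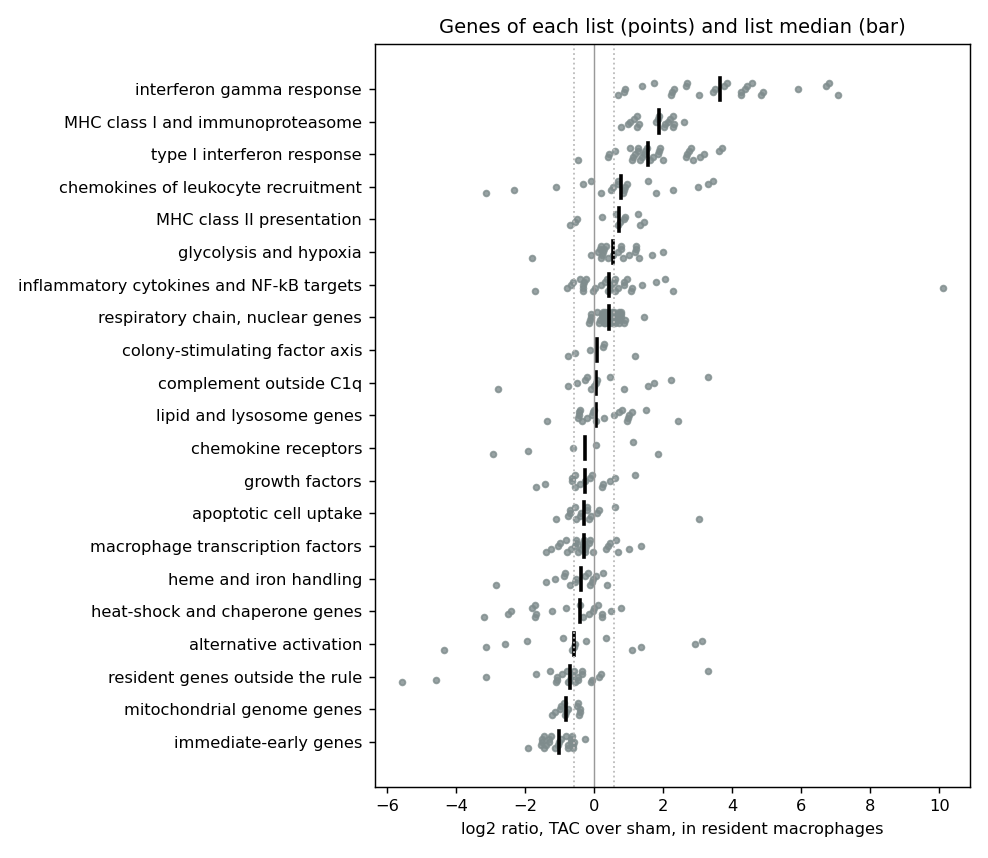
Log2 ratio of TAC over sham (x axis) for every tested gene (grey points) of 21 gene lists (y axis), with the list median as a black bar and dotted lines at 1.5-fold; Cd209d, with 0 UMIs in TAC members, is not drawn. The interferon gamma list lies wholly to the right with a median of 3.63, and immediate-early genes, at a median of -1.03, and resident genes outside the rule, at -0.69, lie mostly to the left.

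The higher level of the interferon gamma response genes was spread over most TAC members. Per barcode, the list summed to a median of 59.5 UMIs per 10000 in TAC members (quartiles 29.1 and 92.3) and 6.15 in sham members (3.56 and 10.0). The 95th percentile of sham members was 22.2 UMIs per 10000, and 77.6% of TAC members lay above it. The remaining TAC members overlapped the sham range, and the 5th percentile of TAC members was 4.21 UMIs per 10000. At a depth of 1000 UMIs, Gbp2 was found in 40.7% of TAC members (37.4% to 44.1%) and 1.69% of sham members (1.16% to 2.37%), and Ly6a in 46.4% of TAC members and 2.0% of sham members. Unthinned, Gbp2 was found in 82.4% of TAC and 12.4% of sham members, and Ly6a in 77.7% of TAC and 8.44% of sham members. Both genes were also found outside macrophages. Gbp2 was found in 48.9% of TAC and 4.15% of sham fibroblast-like barcodes and Ly6a in 82.3% of TAC and 32.1% of sham fibroblast-like barcodes at 1000 UMIs.

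**Figure D3:**
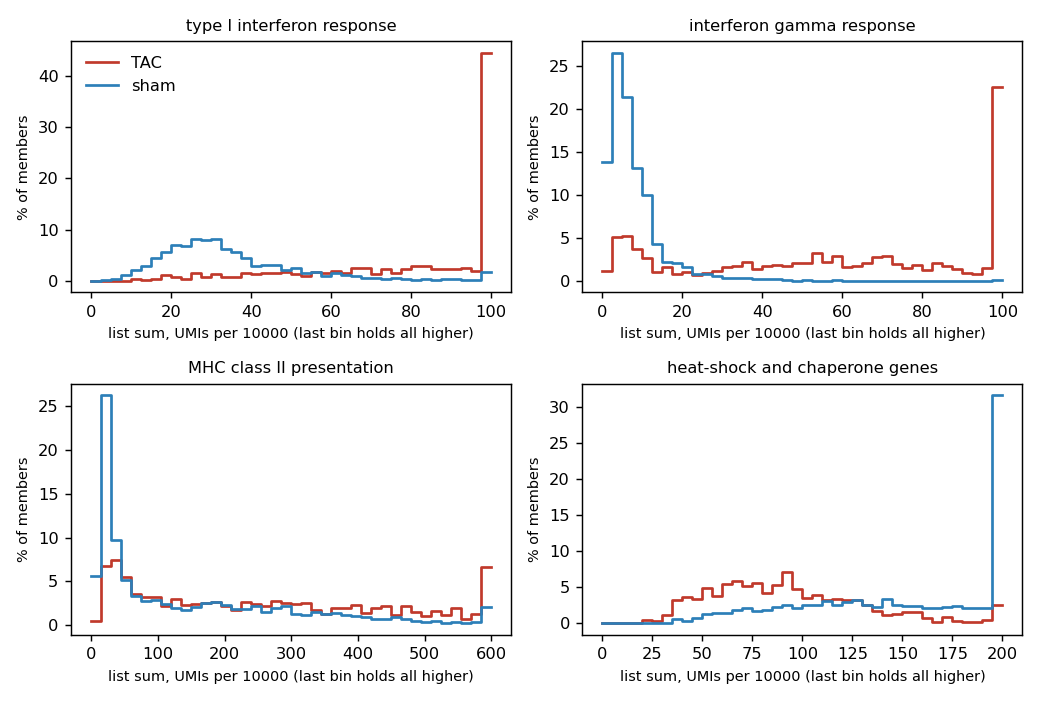
Percentage of members (y axis) by the summed UMIs per 10000 of 4 gene lists in each barcode (x axis; the last bin holds all higher values), TAC in red and sham in blue. TAC members lie to the right for both interferon lists, are spread more evenly for MHC class II, and lie to the left for heat-shock and chaperone genes, where the medians are 87.8 in TAC and 153 in sham members.

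Type I interferon response genes, which restrict viruses, were higher to a smaller degree. Of 30 tested genes, 27 were higher in TAC members and 0 were lower, with a median log2 ratio of 1.56. Zbp1, a sensor of Z-form nucleic acids, stood at 336 CPM in TAC members and 27.7 CPM in sham members, 12.2-fold higher, and Ifit2 was 9.0-fold higher. Ifi44 was 13.4-fold higher from 123 UMIs in TAC members and 13 in sham members. The genes that missed 1.5-fold were Oas2 (log2 ratio -0.47), Parp14 (0.40) and Ifih1 (0.42). Among members with 8000 to 14000 UMIs, a range added after seeing the data, the list median was 1.18.

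Promoter sequence was read for these lists because they moved together. RefSeq promoters (GRCm38.p6) were searched over the 250 bases before each listed start site, on both strands, for a pair of GAAA runs separated by any 2 bases, the core shared by interferon-stimulated response elements. The paired GAAA motif was present for 12 of 18 interferon gamma genes with a promoter in the table (66.7%), 11 of 23 type I genes (47.8%), 3 of 16 MHC class I and immunoproteasome genes (18.8%), and 936 of all 27025 genes (3.46%). Among immediate-early genes it was present for 1 of 21. A match is a run of letters and not a measured binding site. The interferon lists were chosen as interferon response genes, so a high share may follow from that choice. The share describes the reference sequence and not these libraries. Of the genes with the highest ratios, 4 are shown with the 140 bases upstream of their first listed start site, to let the position of the match be read. They were chosen after the matches were seen. Capitals mark the paired GAAA match in either orientation, and the positions are Gbp2 chr3:142620523-142620662 on the plus strand, Gbp2b chr3:142594707-142594846 on the plus strand, Igtp chr11:58199416-58199555 on the plus strand and Tgtp2 chr11:49064213-49064352 on the minus strand.
Gbp2: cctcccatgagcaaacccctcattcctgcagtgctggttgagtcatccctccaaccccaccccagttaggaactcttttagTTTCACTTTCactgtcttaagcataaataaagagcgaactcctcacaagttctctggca
Gbp2b: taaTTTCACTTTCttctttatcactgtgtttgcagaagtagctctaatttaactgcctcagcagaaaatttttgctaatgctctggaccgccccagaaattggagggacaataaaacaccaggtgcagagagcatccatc
Igtp: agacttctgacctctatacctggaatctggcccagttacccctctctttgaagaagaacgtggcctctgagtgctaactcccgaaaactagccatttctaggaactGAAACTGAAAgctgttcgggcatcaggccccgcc
Tgtp2: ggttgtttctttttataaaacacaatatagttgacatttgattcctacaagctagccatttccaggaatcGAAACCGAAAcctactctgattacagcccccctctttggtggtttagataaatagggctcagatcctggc
The match lies between 59 and 50 bases before the start site of Gbp2, between 137 and 128 bases before that of Gbp2b, between 34 and 25 bases before that of Igtp, and between 70 and 61 bases before that of Tgtp2. In Gbp2 and Gbp2b it reads as the reverse complement, and in Igtp and Tgtp2 it reads in the direction of the gene.

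Antigen presentation genes were also higher. All 18 genes of MHC class I and the immunoproteasome, which make and load peptides for CD8 T cells, were higher in TAC members, with a median log2 ratio of 1.87. Tap1, a subunit of the peptide transporter, stood at 225 CPM in TAC members and 36.9 CPM in sham members, 6.10-fold higher, Psmb9 was 4.95-fold higher and Psme2 4.91-fold higher. MHC class II genes serve presentation to CD4 T cells. In TAC members 8 of the 12 tested were higher and 1 was lower, at a median log2 ratio of 0.70. H2-Ab1 stood at 4108 CPM in TAC members and 2209 CPM in sham members, 1.86-fold higher, H2-DMa was 2.52-fold higher, and the cysteine protease gene Ctss was 2.73-fold higher. The lower gene was H2-Ob, which restrains peptide loading, from 80 UMIs in TAC members and 187 in sham members. Its log2 ratio turned to 1.83 at the 5% mitochondrial limit, where only 29 sham members remained. It turned to 0.20 with other cell type markers under 5 per 10000. Sham members held many barcodes with little class II RNA: the list summed to a median of 230.4 UMIs per 10000 in TAC members and 74.2 in sham members, and 70.8% of TAC members (67.6% to 73.9%) against 44.9% of sham members (42.7% to 47.2%) exceeded 100.

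Genes typical of resident macrophages that the rule did not use were mostly lower in TAC members. Of 26 tested, 15 were lower and 1 was higher, with a median log2 ratio of -0.69, against 19.0% lower over all genes. The growth factor gene Igf1 stood at 94.6 CPM in TAC members and 305 CPM in sham members, 3.23-fold lower (3.04 to 3.43). Selenop, which encodes the selenium carrier selenoprotein P, stood at 1456 CPM in TAC members and 3527 CPM in sham members, 2.42-fold lower. Pf4, the platelet factor 4 chemokine gene, was 2.16-fold lower. Ccl24, which encodes the eosinophil chemoattractant eotaxin-2, stood at 67.2 CPM in TAC members and 596 CPM in sham members, 8.87-fold lower (8.28 to 9.50). The C-type lectin gene Cd209f stood at 3.74 CPM in TAC members and 91.2 CPM in sham members, 24.4-fold lower (18.4 to 33.0), with 38% of its 50 TAC UMIs in 1 barcode. Cd209g was 50.2-fold lower from 10 UMIs in TAC members and 711 in sham members. Cd209d had 0 UMIs in TAC members and 53 in sham members. It was 12.5-fold lower against a floor of 3 counts in the TAC library, and its interval starts at 9.79-fold lower. These Cd209 genes are close relatives, so their reads could be split between them. At a depth of 1000 UMIs Cd209f was found in 1 of 843 TAC members, which is below the limit of 0.356% that a count of 0 allows, and in 4.38% of sham members.

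Some genes of the same list had ratios closer to 1. Vsig4, the complement receptor CRIg, stood at 199.6 CPM in TAC members and 173 CPM in sham members, a ratio of 1.15-fold (1.10 to 1.21). Cbr2, which encodes carbonyl reductase 2, stood at 748 CPM in TAC members and 779.9 CPM in sham members. Mertk, the receptor kinase for uptake of apoptotic cells, stood at 59.4 CPM in TAC members and 54.2 CPM in sham members. The mannose receptor gene Mrc1 and the haemoglobin scavenger receptor gene Cd163 were below their sham levels but just within 1.5-fold. Mrc1 stood at 879 CPM in TAC members and 1315 CPM in sham members, and Cd163 at 345 CPM in TAC members and 513 CPM in sham members. Detection at 1000 UMIs was 51.1% of TAC members (47.7% to 54.6%) and 68.5% of sham members (66.4% to 70.6%) for Mrc1. For Cd163 it was 25.03% of TAC members (22.1% to 28.1%) and 34.2% of sham members (32.1% to 36.4%). The 1 gene of the list that was higher was Ccl8, a chemokine gene, at 3576 CPM in TAC members and 365 CPM in sham members, 9.79-fold higher (9.55 to 10.0), found at 1000 UMIs in 54.8% of TAC and 13.6% of sham members.

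The same ratios were computed in the C1q barcodes low in Lyve1, Folr2 and Timd4. By level, 22 of the 23 resident genes tested in both populations were higher in members than in low barcodes in TAC hearts and 0 were lower, against 9.64% higher and 7.58% lower of all genes. In sham hearts 20 of 23 were higher and 0 lower, against 7.76% higher and 7.33% lower of all genes. In the low barcodes, of 10449 genes 11.6% were higher and 19.0% lower in TAC than in sham. There the resident list had a median log2 ratio of -1.38 over the 23 genes tested in both populations, against -0.65 for the same 23 genes in members. The difference of the 2 log2 ratios, members minus low barcodes, exceeded 1.5-fold upwards for 12 of the 23 genes and downwards for 1, against 6.01% upwards and 4.55% downwards of 10165 genes, and its median over the list was 0.59. Genes that vary with Lyve1, Folr2 or Timd4 are partly sorted by the rule itself, so this difference is a description. Vsig4 differed most of all genes at 50 CPM or more. It stood at 4.29 CPM in TAC and 50.7 CPM in sham low barcodes, a log2 ratio of -3.56 there against 0.21 in members. The leukotriene C4 synthase gene Ltc4s (log2 ratio -0.68 in members and -2.52 in low barcodes) and Cbr2 (-0.06 in members and -1.71 in low barcodes) came next within the list. At the 5% mitochondrial limit the median difference over the list was 0.14.

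**Figure D4:**
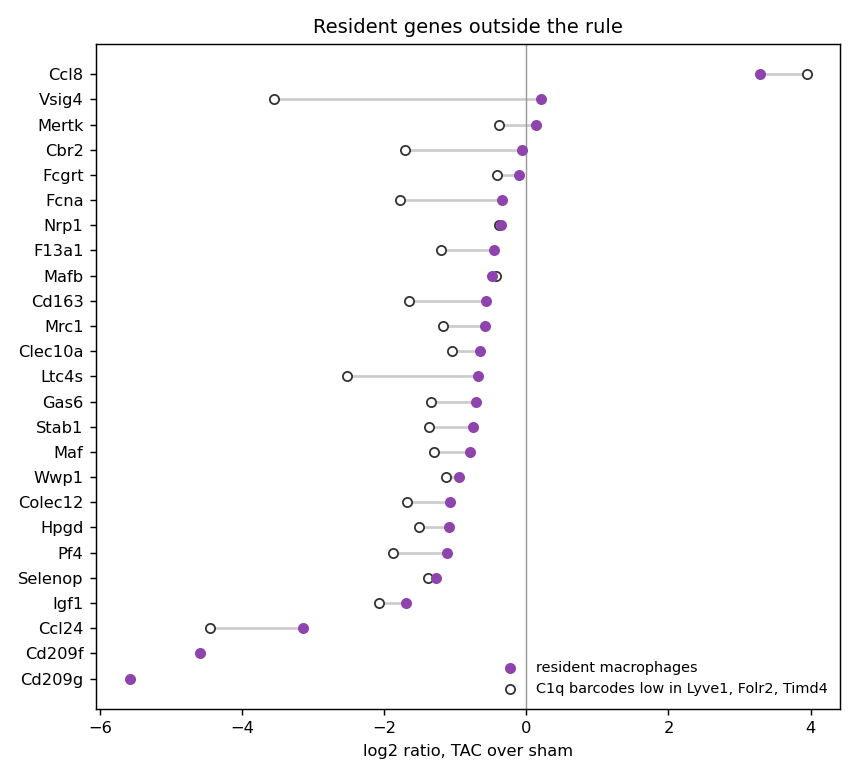
Log2 ratio of TAC over sham (x axis) for 25 resident genes outside the rule (y axis), in resident macrophages (filled) and in C1q barcodes low in Lyve1, Folr2 and Timd4 (open; drawn where at least 50 UMIs were counted there). Vsig4 and Cbr2 lie near 0 in resident macrophages and at -3.56 and -1.71 in the low barcodes, while Ccl8 lies to the right in both.

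Outside that list, the TAC over sham ratio was smaller in members than in low barcodes for Cd69, an early activation marker, Cxcl13, a B cell chemoattractant gene, and C3, the central complement component. Cd69 stood at 10.8 CPM in TAC and 15.3 CPM in sham members, against 71.4 CPM in TAC and 31.3 CPM in sham low barcodes. Cxcl13 stood at 556 CPM in TAC and 344 CPM in sham members, against 185 CPM in TAC and 43.5 CPM in sham low barcodes, so its TAC over sham ratio was higher in the low barcodes although its level was higher in members. Fibronectin, Fn1, was at the opposite end and stood at 10.2 CPM in TAC and 21.4 CPM in sham members, against 14.9 CPM in TAC and 131 CPM in sham low barcodes. For the interferon lists the median differences, members minus low barcodes, were 0.01 for the interferon gamma list, 0.06 for the type I list and 0.01 for MHC class I.

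Genes of alternative activation, a state associated with interleukin 4 and repair, moved in both directions. Of 14 tested, 4 were higher and 6 were lower in TAC members, with a median log2 ratio of -0.58. Retnla, which encodes the secreted protein RELM-alpha, stood at 81.9 CPM in TAC members and 1666 CPM in sham members, 20.3-fold lower (19.1 to 21.6). It was concentrated in a minority of cells: 1.90% of TAC and 16.0% of sham members carried at least 10 UMIs per 10000. In TAC members 1 barcode held 24.1% of all Retnla UMIs. The log2 ratio of Retnla was -4.35 in members and -3.31 in the C1q barcodes low in Lyve1, Folr2 and Timd4. Pla2g2d, a secreted phospholipase gene, was 6.04-fold lower. Chil3, which encodes the chitinase-like protein Ym1, stood at 30.6 CPM in TAC members and 3.48 CPM in sham members, 8.78-fold higher, and Chil3 is also a classical monocyte marker. Tgm2, the transglutaminase gene, was 7.65-fold higher and the interleukin 4 receptor gene Il4ra 2.56-fold higher.

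**Figure D5:**
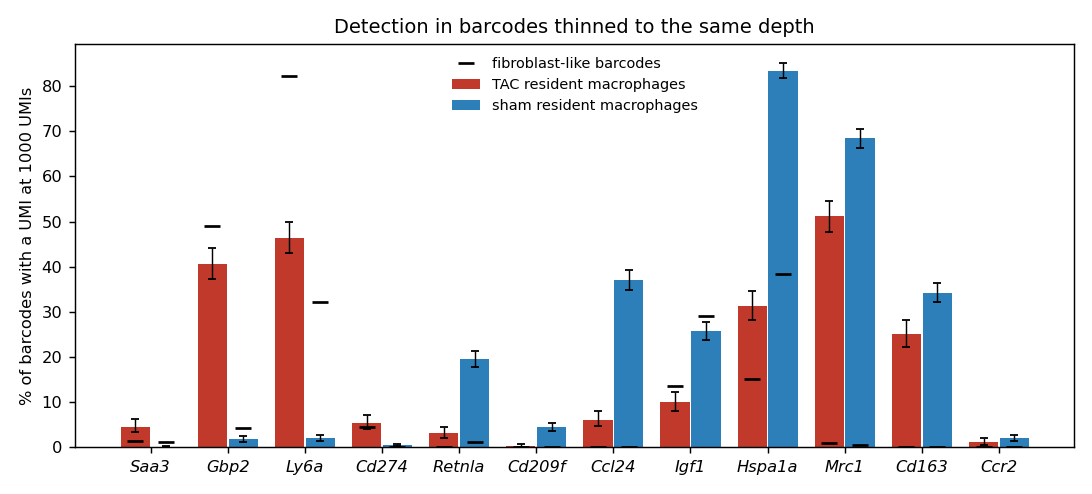
Percentage of resident macrophages with a UMI of each gene after thinning to 1000 UMIs per barcode (y axis), TAC in red and sham in blue, with 95% exact binomial intervals; short black lines give the fibroblast-like barcodes of the same library. Gbp2 and Ly6a were detected in 40.7% and 46.4% of TAC members and in at most 2.0% of sham members, whereas Retnla, Ccl24, Igf1 and Hspa1a were detected less often in TAC members.

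Chemokine genes were mostly higher. Of 20 tested, 12 were higher and 3 were lower in TAC members, with a median log2 ratio of 0.76. The ligands of the receptor CCR2 were among them. Ccl12 stood at 2322 CPM in TAC members and 477 CPM in sham members, 4.87-fold higher, Ccl7 at 2390 CPM in TAC members and 689.5 CPM in sham members, 3.47-fold higher, and Ccl2 at 2133 CPM in TAC members and 1164 CPM in sham members, 1.83-fold higher. Cxcl9, which draws T cells through CXCR3, stood at 105.1 CPM in TAC members and 9.56 CPM in sham members, where 1 of the 20 barcodes with the gene held 51.4% of its 181 UMIs. The stromal chemokine gene Cxcl12 was 5.11-fold lower, from 29 UMIs in TAC members and 210 in sham members. Of 6 tested receptors, 2 were higher, among them Ccr1 by 3.57-fold, and 3 were lower. Cxcr4 was 3.75-fold lower, and Ccr7 was 7.80-fold lower from 20 UMIs in TAC members and 221 in sham members. Ccr2 was lower as well, although its log2 ratio turned to 0.27 at the 5% mitochondrial limit, which left 29 sham members.

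Inflammatory cytokines and NF-kB targets showed a smaller and mixed difference: 13 of 32 were higher, 4 were lower and the median log2 ratio was 0.43. Il1b stood at 198 CPM in TAC members and 152 CPM in sham members and Tnf at 141.5 CPM in TAC members and 107 CPM in sham members, both within 1.5-fold. Il6 was 3.38-fold lower from 19 UMIs in TAC members and 91 in sham members. The acute-phase gene Saa3 had the highest ratio of all named genes. It stood at 794 CPM in TAC members and 0.686 CPM in sham members, from 10611 UMIs in TAC members and 13 in sham members. Its UMIs came from 117 TAC members, 1 of which held 19.6% of them, and from 3 sham members, 1 of which held 84.6% of its 13 UMIs. At least 10 Saa3 UMIs per 10000 were carried by 3.796% of TAC members (2.61% to 5.32%) and 0 of 1896 sham members, which allows a share of up to 0.158%. In the thinned counts Saa3 was found in 4.51% of TAC members, against 1.30% of TAC fibroblast-like barcodes.

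Complement genes outside C1q differed in both directions. The activating protease and convertase genes Cfb (9.90-fold), C2 (3.32-fold) and C4b (2.96-fold) and the terminal component C6 (4.72-fold) were higher in TAC members. The regulator gene Cd55, which encodes decay-accelerating factor, was lower, at 4.49 CPM in TAC members and 31.5 CPM in sham members. In all, 5 of 15 were higher and 2 were lower, with a median log2 ratio of 0.05.

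Genes of uptake of dying cells, a textbook task of this lineage, were counted at shares near the background of all genes. Of 16 tested, 2 were higher and 4 were lower, with a median log2 ratio of -0.30, against 10.8% higher and 19.0% lower of all genes. Gas6, the bridging ligand of MERTK, stood at 287 CPM in TAC members and 469 CPM in sham members, 1.63-fold lower, the scavenger receptor gene Stab1 was 1.68-fold lower, Mfge8 was 2.16-fold lower, and the inhibitory receptor gene Cd300lf was 8.30-fold higher from 164 UMIs in TAC members and 28 in sham members. Heme and iron genes were lower for 6 of 16 and higher for 0, with a median of -0.40, against the same shares of all genes. Slc40a1, the iron exporter ferroportin, stood at 5.39 CPM in TAC members and 38.9 CPM in sham members, 7.22-fold lower, and its regulator Spic was 2.65-fold lower. Lipid and lysosome genes had 8 of 21 higher and 1 lower at a median of 0.04: Spp1, which encodes osteopontin, was 5.43-fold higher, Lgals3, galectin-3, 2.85-fold higher, while Abca1, a cholesterol exporter, was 2.58-fold lower.

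Growth factor and transcription factor genes also lay near the background of 10.8% higher and 19.0% lower. Of 15 tested growth factor genes 2 were higher and 4 lower, with a median of -0.27. Hbegf was 2.71-fold lower and Csf1 2.27-fold higher. Transcription factor genes had 4 of 28 higher and 7 lower, with a median of -0.31. The interferon-responsive factor Irf8 stood at 282 CPM in TAC members and 110.1 CPM in sham members, 2.56-fold higher, and Maf, which sustains resident macrophage identity, at 467 CPM in TAC members and 808 CPM in sham members, 1.73-fold lower. Mef2c was 2.36-fold lower. Of the 6 tested genes of the colony-stimulating factor axis, Csf1 was higher and Csf1r was lower, at a median of 0.07.

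Of 23 tested glycolysis and hypoxia genes 11 were higher and 1 was lower, with a median log2 ratio of 0.56. Pkm, pyruvate kinase, stood at 507 CPM in TAC members and 160.1 CPM in sham members, 3.17-fold higher, the lactate transporter gene Slc16a3 was 4.01-fold higher and the glyceraldehyde phosphate dehydrogenase gene Gapdh 2.26-fold higher. Nuclear genes of the respiratory chain had 13 of 43 higher and 0 lower, with a median of 0.42. All 13 genes of the mitochondrial genome had log2 ratios below 0 and 8 passed 1.5-fold, with a median of -0.83. The filter on mitochondrial UMIs acts on those genes directly. Between 5% and 10% mitochondrial UMIs, a range added after seeing the data, their median was -0.30, while that of the respiratory chain was 0.38 and that of the interferon gamma list 3.33.

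Immediate-early genes, which respond within minutes to stimulation and also to tissue digestion, were lower in TAC members for 23 of 24 genes, with a median log2 ratio of -1.03 and 0 higher. Nr4a1 stood at 29.2 CPM in TAC members and 109.97 CPM in sham members, 3.77-fold lower, Fosl2 was 2.88-fold lower and Egr1 2.21-fold lower. Heat-shock and chaperone genes were lower for 9 of 19 and higher for 1, with a median of -0.41. Hspa1a stood at 507 CPM in TAC members and 2887 CPM in sham members, 5.70-fold lower, and Hspa1b, a near-identical copy whose reads could be shared with it, was 9.11-fold lower. Dnajb1, the HSP70 co-chaperone, was 5.32-fold lower. At 1000 UMIs Hspa1a was found in 31.3% of TAC and 83.5% of sham members, and in 15.2% of TAC and 38.3% of sham fibroblast-like barcodes. The C1q barcodes low in Lyve1, Folr2 and Timd4 had medians of -0.97 for immediate-early genes and -0.58 for heat-shock and chaperone genes. Their medians were 0.60 for glycolysis and hypoxia, 0.39 for the respiratory chain and -0.76 for the mitochondrial genome. These differences were therefore not particular to resident macrophages. Mitochondrial share, depth and the immediate-early and heat-shock lists moved together with the library. Their part in the other differences was not tested.

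Markers of other leukocytes differed between the libraries within the members. The 16 neutrophil genes summed to 520.1 CPM in TAC members and 185 CPM in sham members. Without S100a8 and S100a9, which the rule limits, the sums were 166.7 CPM in TAC members and 129.5 CPM in sham members. Of those other genes, 8 of 11 tested were higher and 1 was lower in TAC members. Camp, Ngp and Stfa2 were at 0 UMIs in sham members. The 10 monocyte genes summed to 579 CPM in TAC members and 109 CPM in sham members, 8 of 10 higher and Ccr2 lower. The 9 NK cell genes summed to 190.2 CPM in TAC members and 28.9 CPM in sham members, with all 8 tested genes higher, among them the granzyme gene Gzma at 100.54 CPM in TAC members and 12.1 CPM in sham members. The 11 B cell genes summed to 283 CPM in TAC members and 895 CPM in sham members, with 10 of 11 lower, and the 10 fibroblast genes to 36.7 CPM in TAC members and 119 CPM in sham members, with 7 of 8 tested lower. Neutrophil RNA was found in most TAC members. No UMI of the 16 neutrophil genes, S100a8 and S100a9 among them, was found in 2.37% of TAC and 52.7% of sham members. A few barcodes carried some of the other sums. No NK cell UMI was found in 77.0% of TAC and 97.7% of sham members, and the NK cell sum was 54.3 CPM in TAC and 22.3 CPM in sham members without a Ccr2 UMI. No fibroblast UMI was found in 73.0% of TAC and 89.5% of sham members, although the summed level was lower in TAC members. These neutrophil, NK cell and fibroblast shares are unthinned. At 1000 UMIs S100a9 was found in 21.4% of TAC and 1.79% of sham members. The TAC members were sequenced more deeply, with a median of 14720 UMIs against 8887.5 in sham members. The plasma cell genes Jchain and Igha had the lowest ratios of all named genes, but 1 sham barcode held 99.7% of the 1064 sham Jchain UMIs and 99.5% of the 2297 sham Igha UMIs. The part of foreign RNA or doublets in these sums was not tested. Limiting the members to barcodes under 5 UMIs per 10000 of other cell type markers left 610 TAC and 1076 sham members. The list medians were then 3.89 for interferon gamma, 1.55 for type I interferon and -0.65 for resident genes. The neutrophil, monocyte and NK cell sums of these remaining members are not given here. The medians therefore do not show what the lists would be without that RNA.

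The members were also divided by Timd4. Timd4 is a gene of the rule, so members without it had to pass the limit on Lyve1 and Folr2 alone. Members with it could pass partly through Timd4, so the groups were chosen differently and their comparison is a description. Members with a Timd4 UMI but under 1 per 10000 are in neither group. Members with at least 1 Timd4 UMI per 10000 were 589 of 843 in TAC hearts (69.9%) and 1110 of 1896 in sham hearts (58.5%), and members without a Timd4 UMI were 187 in TAC hearts and 614 in sham hearts. The median depth of members with Timd4 was 15420 UMIs in TAC hearts and 8873.5 in sham hearts, and that of members without Timd4 was 12250 in TAC hearts and 8022.5 in sham hearts. Within TAC hearts, 4.17% of 8700 genes were higher and 4.55% lower past 1.5-fold in members with Timd4 than in those without, against 1.60% higher and 1.36% lower within sham hearts. In TAC hearts 18 of 21 interferon gamma genes were higher in members with Timd4, with a median log2 ratio of 0.70, against 4 of 21 and 0.16 in sham hearts. For type I interferon genes the counts were 14 of 29 with a median of 0.56 in TAC hearts and 0 of 29 with 0.04 in sham hearts. For MHC class II the medians were 0.29 in TAC hearts and -0.45 in sham hearts. After thinning to 3000 UMIs and dividing members by any Timd4 UMI, the interferon gamma medians were 0.58 in TAC hearts and 0.00 in sham hearts. The difference between the libraries was not tested. Markers of other cells moved with this division. The NK cell genes summed to 195.9 CPM in TAC and 12.9 CPM in sham members with Timd4, against 13.2 CPM in TAC and 59.5 CPM in sham members without. The red cell genes summed to 1277 CPM in TAC and 1157 CPM in sham members with Timd4, against 71.1 CPM in TAC and 602 CPM in sham members without. Their part in the differences by Timd4 was not tested.

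The single genes named for Timd4 were picked as those with the largest ratio running the same way in both libraries, so that shared direction was set by the choice. With Timd4, Gbp2b stood at 397 CPM in TAC and 3.88 CPM in sham members, and without Timd4 at 159 CPM in TAC and 1.69 CPM in sham members. Cxcl9 stood at 126 CPM in TAC and 16.1 CPM in sham members with Timd4, against 48.1 CPM in TAC and 0.188 CPM in sham members without, and 1 barcode held 51.4% of all sham Cxcl9 UMIs. Vsig4 stood at 217 CPM in TAC and 204 CPM in sham members with Timd4, against 113 CPM in TAC and 110.95 CPM in sham members without, and Retnla at 102 CPM in TAC and 1966 CPM in sham members with Timd4, against 20.6 CPM in TAC and 1153 CPM in sham members without. Spp1, the phagocytic receptor gene Cd93, the lectin gene Clec4d and the fractalkine receptor gene Cx3cr1 ran the other way, Cx3cr1 at 82.4 CPM in TAC and 68.4 CPM in sham members with Timd4, against 113 CPM in TAC and 110.95 CPM in sham members without.

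Cells in division were excluded by the rule, and their number is given as a count only. Of the barcodes that met the C1q, Lyve1, Folr2, Timd4 and S100 limits, 111 of 1097 in TAC hearts (10.1%, 8.397% to 12.1%) and 100 of 2316 in sham hearts (4.32%, 3.53% to 5.23%) were left out for 3 or more raw UMIs of Mki67, Top2a and Birc5. The limit is in raw UMIs, and the TAC barcodes were sequenced more deeply. The CD3 limit left out 67 TAC and 92 sham barcodes, and the limit on Gdf15 and Areg left out 118 TAC and 274 sham barcodes.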

How the data were processed

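The deposited matrices hold raw UMI counts per gene and barcode for 31053 features, which the authors deposited unnormalized. The submitters' processing notes name Cell Ranger 3.0 and the mm10 build. The cell calling step is not given. Gene positions came from GENCODE vM21 (GRCm38), which matched 30934 of the feature IDs, and promoters from RefSeq. The members and all 21 gene lists and 13 marker lists were chosen with earlier results of these data known. UMI counts were summed over the members of each library and scaled to CPM. Ratios carry exact conditional Poisson intervals and shares exact binomial (Clopper-Pearson) intervals at 95%, which cover counting error only. UMIs were thinned with a fixed random seed. A share of 0 is given with the limit of 3 counts. No test was run, since each group is 1 library. Neither a doublet caller nor correction for free RNA was run, and the limits of the rule only reduce doublets with T cells, neutrophils and dividing cells. Named genes were the 12 highest and 12 lowest ratios at 50 CPM or more in either library, leaving out mitochondrial, ribosomal, haemoglobin, sex-linked marker and predicted genes, genes of the rule and other cell types' markers. Added to these were the rule genes, the 3 highest and 3 lowest of each list, and the 6 at each end of the comparison with low barcodes and of the Timd4 comparison, the last ranked by the smaller of both libraries' ratios among genes running one way in both, and further list members are named for their role. Of the listed symbols, Mx2, Ifi30, Aldoa and Atp5o were not used because they matched no feature or more than 1. A second promoter motif that was searched, and values of some list members, are not reported here. The calculations were tested on simulated counts. Scripts ran under Python 3.11.15 with pandas 2.3.3, matplotlib 3.10.9, scipy 1.17.1 and numpy 2.4.6.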

Additional observations from a re-analysis of the deposited data

Results flagged for a closer look

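One gene differed in opposite directions between the populations. Ctla2a, which encodes a cysteine protease inhibitor, had a log2 ratio of TAC over sham of 0.89 in resident macrophages, at 101.2 CPM in TAC and 54.6 CPM in sham members. In the C1q barcodes low in Lyve1, Folr2 and Timd4 its log2 ratio was -0.84, at 40.4 CPM in TAC and 72.3 CPM in sham barcodes. It is listed because the single TAC library moved one way and the other way in the 2 populations, and the difference was not tested.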

How the results depend on the processing

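No paired analysis was possible because each group is 1 library, and for the same reason no library could be left out. The list medians for interferon gamma genes ranged from 2.97 to 3.89, for MHC class II from 0.62 to 1.26, for resident genes from -0.83 to -0.54, for immediate-early genes from -1.12 to -0.72 and for heat-shock genes from -0.81 to -0.33 over all settings run. The log2 ratio of the share of kept barcodes, -1.60 as reported, was -0.70 at a 5% mitochondrial limit, -1.76 and -1.39 at resident limits of 20 and 5 per 10000, -1.24 with other cell type markers under 5 and -1.34 at 8000 to 14000 UMIs. The log2 ratio of the share of C1q barcodes, -0.89 as reported, was -0.45 and -0.74 at mitochondrial limits of 5% and 20%, -1.06 and -0.68 at resident limits of 20 and 5, -0.76 without Ccr2 UMIs and -1.15 at 8000 to 14000 UMIs. Of all genes tested, genes higher past the fold numbered 1974 at the 5% mitochondrial limit, 632 with at least 500 UMIs and 489 past 2-fold. The genes lower past the fold numbered 1336 after thinning to 3000 UMIs, 745 with at least 500 UMIs and 747 past 2-fold, where fewer genes can pass by construction. The type I median was 1.18 at 8000 to 14000 UMIs, the resident difference from low barcodes 0.14 at the 5% limit, and the Timd4 interferon gamma median in TAC 0.58 after thinning. At the 5% limit, with 29 sham members, the log2 ratio turned for Scarb1 (-0.44), H2-Ob (1.83), Cryab (-0.65), Osm (-0.78), Id3 (1.04) and Ccr2 (0.27). Igha turned at C1q of at least 80 (0.21), a resident limit of 20 (0.97), other markers under 5 (0.84) and 8000 to 14000 UMIs (0.66). H2-Ob turned with other markers under 5 (0.20), Areg at 8000 to 14000 UMIs (0.23) and the population difference of Mgp there (2.24). Ccr2 stood at 0.51 without barcodes carrying Ccr2. That filter removes all its UMIs by construction, so the value reflects only the library totals and the added 0.5 UMI. Apart from the Ccr2 filter, the cause was not tested. Scaling without mitochondrial and ribosomal protein genes moved the all-gene median to -0.16. The range of 8000 to 14000 UMIs and that of 5% to 10% mitochondrial UMIs were chosen after seeing the data. Depth limits what a low gene can show, and a share under 0.356% of TAC or 0.158% of sham members could not be told from 0.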
